A study of Sus scrofa with 3 samples.

Results

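A set of 9 genes of keratinised and barrier epithelium was followed through tooth development in the miniature pig: IVL, SPRP, CST6, SPINK5, CALML5, KRT10, FABP5, DSP and ELF3. The genes were chosen by name with earlier results of these data known, so their contrasts with all probe sets below are description only. Every probe set that the array's platform table pairs with 1 of these 9 symbols alone was taken, which gave 14 of the 23999 probe sets analysed. The 9 genes stand among 6765 genes with at least 1 such probe set. They were read as 6 genes of cornified epithelium (IVL, SPRP, CST6, SPINK5, CALML5 and KRT10) and 3 genes of epithelia in general (FABP5, DSP and ELF3).

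The samples were germs of the last deciduous molar of Wuzhishan miniature pigs, dissected together with their dental lamina. The germs of 1 litter were pooled at each of 3 stages, and the RNA of each pool was measured on 1 Affymetrix Porcine Genome Array. At embryonic day 40 (E40) the germ was at the cap stage and had no secondary dental lamina. At E50 it was at the bell stage, with the secondary lamina starting, and at E60 at the secretory stage. No treatment and no mutation set the stages apart, and the number of germs in a pool is not given in the sources used here.

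A cornifying epithelium, such as epidermis or the keratinised lining of the mouth, builds a cornified envelope under the membrane of its upper cells: involucrin and small proline-rich proteins are cross-linked into a shell that joins the keratin filaments and desmosomes. Protease inhibitors such as cystatin E/M and LEKTI hold back the enzymes that process the envelope and shed the outer cells. Desmosomes, fatty acid binding proteins and epithelial transcription factors such as ELF3 occur in many epithelia, cornified or not, including that of the tooth germ.

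Levels are MAS 5.0 signals, an estimate of hybridisation per probe set in arbitrary units, which cannot be set against each other between probe sets. Sums of signals over a gene list are led by its brightest probe sets, and say little about the dimmer ones. The median signal was 163.5 on the E40 array, 125.0 on the E50 array and 132.0 on the E60 array. The floor of each array was its 25th percentile, which was 29.3 at E40, 17.2 at E50 and 21.8 at E60, and any lower signal was taken as too low to measure and raised to it. Where 1 of the signals compared had been raised, the fold is a bound, written "at least", and where both had been, none is given. Calls of higher and lower need a difference of more than 2-fold. With 1 array per stage no difference could be set against a spread between replicates, no test was possible, and stage, litter and dissection cannot be told apart. The only spread at hand was that between probe sets of the same gene: a pooled SD of 0.55 in the log2 fold at E50 versus E40 over 1596 genes, of 0.41 at E60 versus E50 over 1625 genes, and of 0.50 at E60 versus E40 over 1596 genes.

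Most of these genes were far dimmer at E50 than at E40. Of the 13 member probe sets with a fold at E50 versus E40, 11 were called lower and 0 higher, where 15.6% of all 18379 probe sets with a fold were called lower and 2.60% higher. The 11 belong to 8 genes, and the probe sets within 2-fold were that of KRT10 and the brighter one of DSP. Read by the brightest probe set of each gene, 7 of 9 genes were lower, with a median log2 fold of -3.01, against -0.11 over all probe sets with a fold. Of the 11 member probe sets with an E40 signal over 100, 5 were lower by more than 16-fold at E50, where 0.661% of all 13761 such probe sets were. The limit of 100 was applied at E40, where most members were brightest. With E50 signals raised to the floor, probe sets not far above 100 at E40 could not show a 16-fold drop. CALML5, at 102.3, could show no more than 5.94-fold. Such probe sets lower both shares by construction, so no conclusion is drawn from the gap between them. CST6 and SPINK5 only just passed 16-fold, with log2 folds of -4.03 and -4.16. At equal medians they did not, at -3.64 and -3.78, nor did they after quantile normalization, at -3.90 and -3.66. In bulk tissue such as this, fewer cells of a type and less RNA per cell cannot be told apart.

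**Figure D1:**
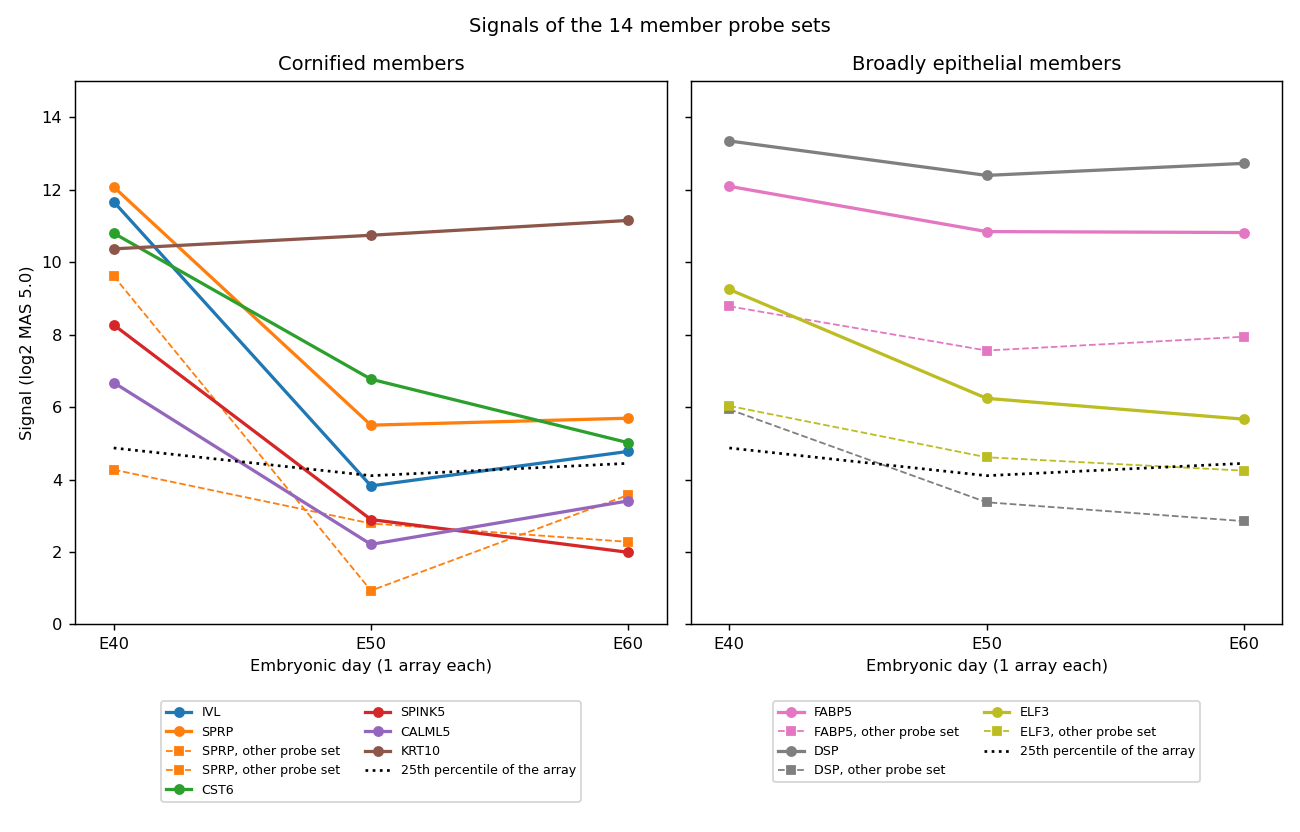
Log2 MAS 5.0 signal (vertical axis) of the 14 member probe sets on the E40, E50 and E60 arrays (horizontal axis, 1 array per stage), cornified genes on the left and broadly epithelial genes on the right. Solid lines are the brightest probe set of a gene, dashed lines its other probe sets and the dotted line the 25th percentile of each array; IVL, SPRP, CST6, SPINK5 and CALML5 come down steeply between E40 and E50, while KRT10, FABP5 and the brighter DSP probe set stay far above the dotted line.

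The envelope proteins IVL and SPRP showed large drops. IVL encodes involucrin, a scaffold onto which the cornified envelope is cross-linked. Its single probe set had a signal of 3255 at E40, 14.2 at E50 and 27.4 at E60. The E40 signal was far above the array's median, the E50 signal was under the floor and the E60 signal just above it. IVL was at least 189-fold lower at E50 than at E40, a log2 fold of -7.56, and 3 of the 18379 probe sets with a fold had a lower one. The signal left at E60 was 0.842% of that at E40. With 1 common floor on the arrays, the bound at E50 versus E40 was -6.80.

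SPRP is the platform table's name for a small proline-rich protein, for which the RefSeq gene table gives SPRR1B as a synonym. Small proline-rich proteins are cross-bridges of the cornified envelope. The brightest SPRP probe set had 4321 at E40, 45.3 at E50 and 51.7 at E60. It was 95.4-fold lower at E50 than at E40, a log2 fold of -6.58, with 1.05% of the E40 signal left. On both later arrays it stayed above the floor but under the array's median. A separate SPRP probe set had 785.0 at E40, 1.9 at E50 and 11.9 at E60, at least 45.6-fold lower at E50 than at E40 (log2 fold -5.51). Both later signals of it were under the floor. The remaining one was under the floor on all 3 arrays, with 19.3 at E40, 6.9 at E50 and 4.9 at E60, and has no fold. The 2 SPRP probe sets that could be read were thus both lower, and since the second fold is a bound, the gap between them is not known. Since small proline-rich proteins form a family of close relatives, it is uncertain how far each probe set is specific to 1 of them.

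Both protease inhibitors were bright at E40 and dim later. CST6, cystatin E/M, inhibits legumain and the cathepsins V and L, and through them the protease steps of cornification. Its probe set had 1783 at E40, 109.1 at E50 and 32.4 at E60. CST6 was 16.3-fold lower at E50 than at E40 (log2 fold -4.03) and a further 3.37-fold lower at E60 than at E50 (-1.75). The drop was thus spread over both intervals, which was not so in IVL or SPRP. SPINK5 encodes LEKTI, the inhibitor of the kallikrein proteases that loosen cell contacts in the outermost epidermis. Its probe set had 308.5 at E40, 7.4 at E50 and 4.0 at E60. SPINK5 was at least 17.9-fold lower at E50 than at E40 (log2 fold -4.16), and both later signals were under the floor. That bound was -3.40 with 1 common floor, and the log2 fold without any floor was -5.37.

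The proteases that these inhibitors act on, and related inhibitors, did not share the drop. Of 22 such genes listed, 14 had a named probe set. On E50 versus E40, 1 was called higher and 0 lower, with a median log2 fold of 0.11. CTSB, cathepsin B, had 6767 at E40, 7077 at E50 and 6631 at E60. CTSV, cathepsin V, a target of CST6, had 3141 at E40, 3289 at E50 and 3275 at E60. Neither enzyme differed by as much as 2-fold between any of the arrays. Legumain (LGMN), CTSC and KLK7, here chosen after their values were seen, cover the main target of CST6, the gene called higher and a target of SPINK5. LGMN had 1119 at E40, 1312 at E50 and 1445 at E60. CTSC, cathepsin C, had 1564 at E40, 3431 at E50 and 3325 at E60. KLK7 had 35.3 at E40, 19.5 at E50 and 40.1 at E60, close to the floor throughout. CTSV and LGMN, targets of CST6, were thus within 2-fold at E50 versus E40, while for SPINK5 the target KLK7 was too dim at E40 to show a drop of that size.

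CALML5 encodes a calmodulin-like protein of differentiating keratinocytes, in human skin known as calmodulin-like skin protein. Its single probe set was under the array's median even at E40, with 102.3 at E40, 4.6 at E50 and 10.6 at E60. It was at least 5.94-fold lower at E50 than at E40 (log2 fold -2.57), with both later signals under the floor. This bound leaned on the settings: it was -1.81 with 1 common floor and -1.90 after quantile normalization, and the log2 fold was -4.47 with no floor. With the floor at the 50th percentile of each array CALML5 had no fold and no call, at E50 and at E60 alike. Other calmodulin genes were CALM2, with 6100 at E40, 5998 at E50 and 6064 at E60, and the calmodulin-like CALML4, with 160.7 at E40, 48.7 at E50 and 71.9 at E60. The brightest probe set of CALM3 had 4374 at E40, 2447 at E50 and 2905 at E60. CALM2, which encodes calmodulin itself, was level across the arrays, while CALM3 was 1.79-fold lower at E50 than at E40 and not called. CALML4 was the single gene called lower at E50 versus E40 among the 3 of this list with a probe set.

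KRT10 went against the other cornified genes. It encodes keratin 10, the acidic keratin of suprabasal cells in keratinising epidermis, where it pairs with keratin 1. Its single probe set had 1321 at E40, 1714 at E50 and 2276 at E60. The signals were well above each array's median and did not pass 2-fold in any pair: KRT10 was 1.30-fold higher at E50 than at E40, 1.33-fold higher at E60 than at E50 and 1.72-fold higher at E60 than at E40. Of all log2 folds at E50 versus E40, 82.8% were lower than that of KRT10. With the arrays scaled to equal medians, its log2 fold at E60 versus E40 was 1.09 and was called higher. KRT1, the partner keratin, chosen here after its values were seen, had 7.4 at E40, 8.2 at E50 and 5.4 at E60, under the floor on every array. So the label of a cornified gene, which rests on the role of keratin 10 in skin, was not borne out by the pattern of this probe set. Whether the probe set reads KRT10 alone was not tested.

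Of the other keratins, KRT8 and KRT19, typical of simple epithelia, were bright throughout. KRT8 had 5616 at E40, 8428 at E50 and 8479 at E60. KRT19 had 3819 at E40, 6018 at E50 and 5240 at E60. KRT18, the partner of keratin 8, was called higher at E50, with 163.0 at E40, 443.7 at E50 and 437.2 at E60. KRT2, a keratin of upper epidermis, was called lower, with 38.4 at E40, 18.5 at E50 and 37.6 at E60, and that call, just past 2-fold, was lost with the common floor and under every other scaling. Like KRT10, KRT8 and KRT19 were not called at E50 versus E40, and a second, dimmer KRT8 probe set had 199.8 at E40, 127.9 at E50 and 120.4 at E60.

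**Figure D2:**
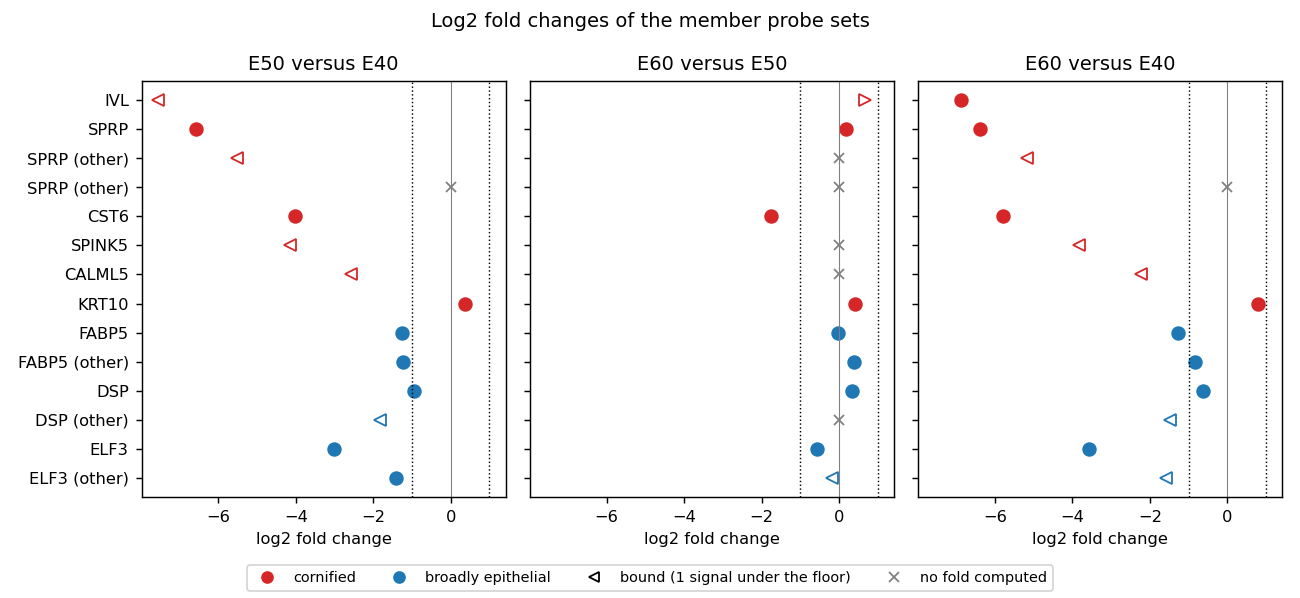
Log2 fold change (horizontal axis) of each member probe set (rows) at E50 versus E40, E60 versus E50 and E60 versus E40, from 1 array per stage. Filled circles are measured folds, open triangles are bounds that point the way the true fold may lie, crosses at 0 mark probe sets with no fold, and dotted lines mark 2-fold; of those with a fold, all but KRT10 and the brighter DSP probe set lie left of the line at -1 at E50 versus E40, and only CST6 does so at E60 versus E50.

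Among the broadly epithelial genes, ELF3 was far lower at E50 than at E40, and FABP5 and DSP less so. ELF3 is an ETS family transcription factor of differentiating epithelia, and in human keratinocytes it is known to act on SPRR promoters. Its brightest probe set had 608.1 at E40, 75.7 at E50 and 50.8 at E60. It was 8.04-fold lower at E50 than at E40 (log2 fold -3.01), which left 12.4% of the E40 signal. The dimmer probe set had 65.4 at E40, 24.5 at E50 and 19.0 at E60, or 2.67-fold lower at E50 than at E40 (log2 fold -1.42). That call was lost after quantile normalization, at -0.73. The probe sets had the same direction, with log2 folds 1.59 apart.

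FABP5 is the epidermal fatty acid binding protein, which carries long-chain fatty acids in keratinocytes and many other cells. Its brightest probe set had 4372 at E40, 1839 at E50 and 1806 at E60. Its other one had 440.0 at E40, 188.9 at E50 and 245.9 at E60. Both were a little past 2-fold lower at E50 than at E40, by 2.38-fold and 2.33-fold, and all of these signals were above the array's median. These calls depended on the scaling: with the arrays set to equal medians the log2 folds were -0.86 and -0.83. After quantile normalization that of the dimmer probe set was -0.99.

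DSP is desmoplakin, which ties keratin filaments to the desmosome (the symbol does not stand here for dentin sialoprotein). Its brighter probe set had 10408 at E40, 5386 at E50 and 6782 at E60. This was 1.93-fold lower at E50 than at E40 (log2 fold -0.95) and so not called, though after quantile normalization it was, at -1.09. The dimmer probe set had 61.3 at E40, 10.4 at E50 and 7.2 at E60, at least 3.56-fold lower at E50 than at E40. So the brighter probe set kept 51.7% of its E40 signal at E50, and the dimmer one fell under the floor.

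Genes with roles near those of FABP5, DSP and ELF3 were mostly within 2-fold at E50 versus E40. Of the 4 other desmosome genes with a probe set, 0 were called, with a median log2 fold of -0.36 that turned to 0.03 at equal medians. PERP, a desmosomal membrane protein, had 14867 at E40, 14003 at E50 and 12745 at E60. JUP, plakoglobin, had 409.8 at E40, 327.4 at E50 and 267.9 at E60. PPL, periplakin, which also belongs to the envelope, had 2023 at E40, 1541 at E50 and 997.5 at E60, called lower at E60 versus E40. PKP4, an armadillo protein of cell junctions, had 72.2 at E40, 46.9 at E50 and 68.8 at E60. None of them showed a drop to the floor.

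Among fatty acid and retinoid binding proteins, 7 of the 11 genes with a probe set had a fold. CRABP2, a retinoic acid carrier, was the single call at E50 versus E40, higher at E50, with 1304 at E40, 2993 at E50 and 1493 at E60. FABP3, a relative of FABP5, had 1287 at E40, 1350 at E50 and 580.8 at E60. Both were called lower at E60 versus E50.

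Of the transcription factors linked to barrier differentiation, 10 genes had a probe set and 8 a fold at E50 versus E40, of which 2 were called lower and 0 higher. One of them, KLF4, a factor needed for the skin barrier in mice, had 707.5 at E40, 247.8 at E50 and 1566 at E60. Its low point was at E50, unlike ELF3, which was lower still at E60. The other was CEBPA, chosen here as a called gene, with 41.0 at E40, 6.9 at E50 and 21.9 at E60. ETS2, of the same family as ELF3, had 1243 at E40, 1244 at E50 and 1214 at E60. Its signal was level on the 3 arrays. JUN, a component of AP-1, had 1234 at E40, 2430 at E50 and 1905 at E60. CEBPB had 357.7 at E40, 555.4 at E50 and 665.2 at E60. JUN and CEBPB were both higher at E50 and E60 than at E40, by less than 2-fold. EHF, the factor closest in kind to ELF3 and chosen here after its values were seen, was under the floor on all 3 arrays.

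After E50 few further differences could be read in these genes. At E60 versus E50, 5 of the 14 member probe sets had both signals under the floor and no fold. Those of SPINK5 and CALML5 were among them, and a further drop there could not be seen. Of 9 member probe sets with a fold at E60 versus E50, 1, that of CST6, was called lower and 0 higher, where 1.88% of all 18593 probe sets with a fold were called lower and 6.37% higher. The median log2 fold of the 7 genes measured was 0.19, against 0.02 over all probe sets. CST6 stood out here, with 44 of 18593 probe sets lower. The call was lost when the floor was set at the median of each array. ELF3 was 1.49-fold lower at E60 than at E50, within the threshold, while IVL was at least 1.59-fold higher and DSP 1.26-fold higher. IVL at E60, at 27.4, was still near the floor of 21.8.

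Over the whole interval, 10 of the 13 member probe sets with a fold at E60 versus E40 were called lower and 0 higher, where 12.6% of all 18625 probe sets were called lower and 4.51% higher. The median over the 9 genes was -3.58, against -0.11 over all probe sets. Set in order of log2 fold, IVL (-6.89), SPRP (-6.38), CST6 (-5.78), SPINK5 (-3.82, a bound), ELF3 (-3.58) and CALML5 (-2.23, a bound) were followed by FABP5 (-1.28), DSP (-0.62) and KRT10 (0.78). With arrays at equal medians FABP5 was at -0.97 and not called. Bounds leave part of this order open: without a floor SPINK5 was at -6.28, beyond CST6, and CALML5 at -3.27. This comparison shares its arrays with the ones above and is no independent observation.

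Set against each other, 5 of 6 cornified genes and 2 of 3 broadly epithelial ones were called lower at E50 versus E40, where 15.6% of all probe sets were. The broad count was 1 at equal medians and 3 after quantile normalization. The median log2 fold was -4.10 for the cornified genes and -1.25 for the broad ones. The groups overlapped through KRT10, which was above all 3 broad genes. On E50, 3 of 6 cornified genes were under the floor by their brightest probe set and 0 of 3 broad ones. The groups were drawn up with earlier results of these data known, and no test of the difference between them was made.

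**Figure D3:**
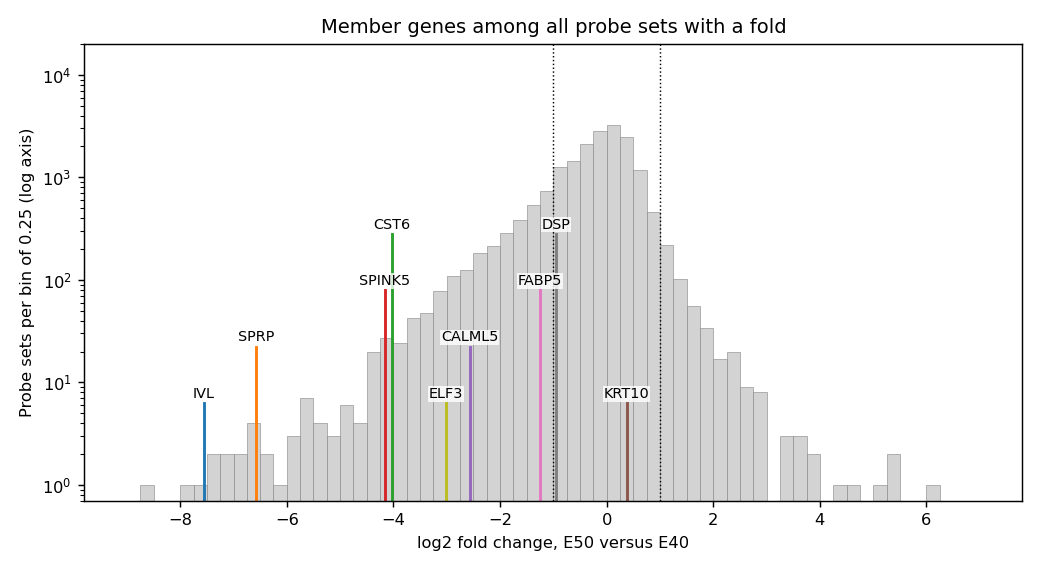
Histogram of the log2 fold at E50 versus E40 (horizontal axis, bins of 0.25) over the 18379 probe sets with a fold, with the number per bin on a log axis. Coloured lines mark the brightest probe set of each member gene and dotted lines 2-fold; IVL and SPRP lie in the far left tail, CST6, SPINK5, ELF3 and CALML5 in the left flank, FABP5 and DSP near the line at -1, and KRT10 right of 0.

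Other genes of cornification moved less. Of 57 such genes listed, 12 had a probe set named for them alone and 11 had a fold at E50 versus E40, of which 1 was called higher and 3 lower, with a median log2 fold of -0.52. The brightest were ANXA1, annexin A1, with 8877 at E40, 8464 at E50 and 7736 at E60, and CSTB, cystatin B, with 5137 at E40, 3584 at E50 and 2690 at E60. S100A14, a calcium-binding protein, had 1290 at E40, 1470 at E50 and 805.5 at E60. None of these 3 was called at E50 versus E40, and their proteins also occur outside cornified layers. The called genes, given here after their values were seen, were mostly dim. MAL was 3.87-fold lower at E50, with 193.5 at E40 and 29.5 at E60. S100A12 had 62.1 at E40, 15.9 at E50 and 32.8 at E60, and KRT2 is given above. SERPINB2 was the one called higher, with 35.4 at E40, 98.9 at E50 and 104.8 at E60. For these dim genes the floor leaves no room for a fold like that of IVL or SPRP, and most of the genes listed had no probe set of that kind.

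General epithelial genes mostly stayed within 2-fold. Of 18 with a probe set, 17 had a fold at E50 versus E40, of which 1 was called higher and 1 lower, with a median log2 fold of 0.19. CDH1, E-cadherin, had 4286 at E40, 4566 at E50 and 4765 at E60. ESRP1, an epithelial splicing factor, had 4588 at E40, 4330 at E50 and 3827 at E60. Their sum with the other genes of the list, led by bright genes such as KRT8 and EPCAM, was 30983 at E40, 39613 at E50 and 35219 at E60. The drop in IVL, SPRP, CST6, SPINK5, CALML5 and ELF3 was thus not seen in most genes of this list. KRT18 was the gene called higher. COL17A1, the one called lower, had 54.7 at E40, 15.6 at E50 and 66.3 at E60. CDH3 had 30.3 at E40 and was under the floor at E50, and DST was 1.76-fold lower at E50 than at E40. These 4 were chosen after their values were seen. At equal medians the list's median was higher, at 0.57.

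The enamel genes AMBN, AMELX, MMP20, ENAM and KLK4 summed the other way. AMBN, ameloblastin, had 59.8 at E40, 2675 at E50 and 29942 at E60. The 5 genes summed to 222.9 at E40, 5143 at E50 and 59209 at E60, which bears out the tooth germ label of the later samples. At E50 versus E40, 3 of the 4 with a fold were called higher and 1 lower. The E40 sample, at the cap stage, had 2 of the 5 under the floor.

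**Figure D4:**
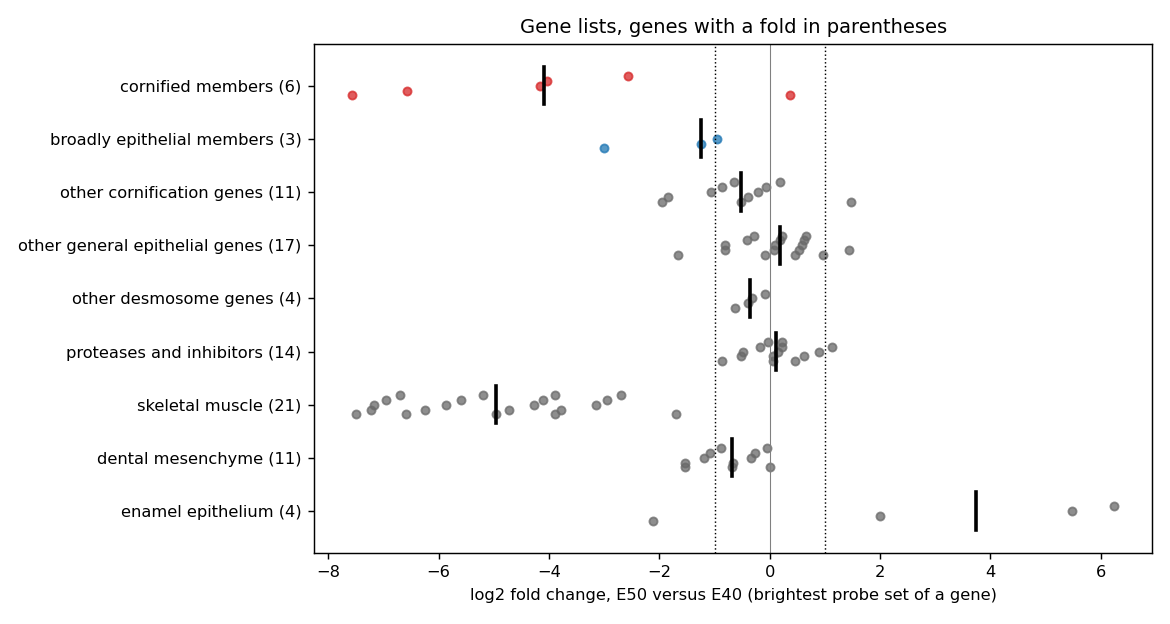
Log2 fold at E50 versus E40 (horizontal axis) of each gene with a fold (points, brightest probe set) in the cornified and broadly epithelial members and in 7 other gene lists (rows), with the number of genes in parentheses. Short vertical bars are medians and dotted lines mark 2-fold; the cornified members spread to the far left except KRT10, the 21 skeletal muscle genes all lie left of -1, and the general epithelial genes centre near 0.

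Markers of another tissue moved with the members. Of 22 skeletal muscle genes with a probe set, 21 had a fold at E50 versus E40 and all 21 were called lower, with a median log2 fold of -4.96. MYL1, a myosin light chain, had 7116 at E40, 481.2 at E50 and 3266 at E60, and TNNC2, a troponin, had 3493 at E40, 112.1 at E50 and 116.6 at E60. The list summed to 47651 at E40, 1247 at E50 and 4173 at E60, with 1 gene under the floor at E40, 6 at E50 and 10 at E60. The muscle genes and IVL, SPRP, CST6 and SPINK5 were thus both far higher at E40 than at E50, and the part of muscle in the drop of the members was not tested. At E60 versus E50, 10 of the 14 muscle genes with a fold were within 2-fold, 3 were higher, MYL1 among them, and 1 was lower. At E60 versus E40, 20 of 21 were still called lower.

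Some salivary or mucous gland genes were lower at E50 than at E40, but fewer were at E60. At E60 versus E40, 1 of the 6 with a fold was called lower, with a median log2 fold of -0.46. Of 9 with a probe set, 5 had a fold at E50 versus E40 and 3 were called lower, with a median of -1.13, or -0.19 after quantile normalization. AMY2, an amylase, had 1338 at E40, 236.2 at E50 and 1059 at E60, and BPIFA1, a secreted airway and oral protein, had 341.9 at E40, 14.8 at E50 and 43.3 at E60. MUC19, a gel-forming mucin, had 86.7 at E40, 39.8 at E50 and 44.8 at E60, and MUC1, a membrane mucin, had 92.4 at E40, 80.5 at E50 and 61.5 at E60. The list summed to 1959 at E40, 449.1 at E50 and 1329 at E60, and was under the floor in 4 genes at E40, 4 at E50 and 2 at E60. Its part in the members' drop was not tested. The dental mesenchyme list summed to 81080 at E40, 63205 at E50 and 79493 at E60, with 4 of 11 genes called lower at E50 versus E40. That count was 2 at equal medians and 3 after quantile normalization. Of the endothelial genes 3 of 8 with a fold were called lower, and 1 at equal medians or after quantile normalization. Of the melanocyte genes 1 of 3 was called lower and of the macrophage and Langerhans cell genes 0 of 3. Over all probe sets with a fold, 15.6% were called lower as deposited. By contrast, 10 housekeeping genes had 0 called and a median of 0.04.

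IVL and SPRP lie in the same cluster of genes, the epidermal differentiation complex, where many genes of the cornified envelope stand side by side. In the RefSeq annotation of the pig genome (Sscrofa11.1, used for gene order alone), the block bounded by S100A1 and S100A10 holds 50 genes, of which 46 are protein-coding, and 1 gene lies between SPRP and IVL. The array had a named probe set for 11 of the 50, so 9 besides SPRP and IVL. On E50 versus E40, 0 of these 9 were called higher and 3 lower, with a median log2 fold of -0.32. The genes of the block given here were chosen by position. S100A11, next in the order after IVL among those with a probe set, had 10912 at E40, 11646 at E50 and 10762 at E60. S100A10 had 12548 at E40, 10078 at E50 and 9190 at E60. PPGRP-S, the nearest such gene before SPRP, had 43.7 at E40, 40.9 at E50 and 26.8 at E60. S100A11 and S100A10, both bright at E40, were thus within 2-fold, while PPGRP-S was too near the floor at E40 to show a large drop.

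The 3 called genes of the block were S100A1, with 303.4 at E40, 111.5 at E50 and 110.2 at E60, S100A4, with 420.3 at E40, 179.1 at E50 and 237.8 at E60, and S100A12. S100A1, a calcium-binding protein abundant in muscle, was 2.72-fold lower at E50 than at E40, and S100A4 was 2.35-fold lower. S100A8 and S100A9, partners in a protein of neutrophils and of stressed keratinocytes, were dim: S100A8 had 32.5 at E40, 20.7 at E50 and 10.4 at E60, and S100A9 had 100.1 at E40, 86.6 at E50 and 98.9 at E60.

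**Figure D5:**
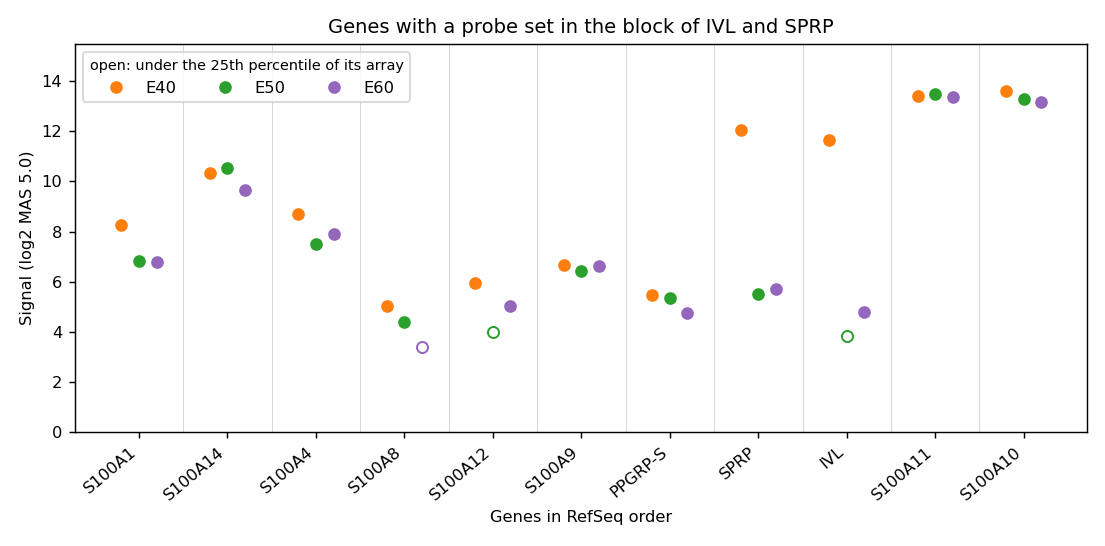
Log2 MAS 5.0 signal (vertical axis) at E40, E50 and E60 (colours, 1 array per stage) of the 11 genes with a named probe set in the block from S100A1 to S100A10, in RefSeq order (horizontal axis, not to scale). Open circles are signals under the 25th percentile of their array. Of the 11 genes shown, only SPRP and IVL have a gap of more than 16-fold between E40 and the later arrays. S100A8, PPGRP-S and S100A12 were dim at E40, and the rest of the block was not measured.

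Few of the immediate neighbours of the 9 genes could be read. Of the 88 places within 5 genes of a member that are not held by members, 10 had a named probe set. Of these, 9 had a fold at E50 versus E40, with 0 called higher and 1 lower, where 15.6% of all probe sets were lower. The gene called lower was SNRNP48, beside DSP, with 1397 at E40, 487.0 at E50 and 489.9 at E60. None of the 9 stood near IVL, SPRP, KRT10 or SPINK5, so no other gene was read around these members. FABP4, a relative of FABP5 that lies near it, was dim, with 44.2 at E40 and 139.3 at E60, and was 1.36-fold higher at E50 than at E40. These genes were named by position and call after their values were seen.

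The genes most like each member over the 3 arrays were found by the Euclidean distance between their 2 log2 differences (E50 minus E40 and E60 minus E50), among 5998 genes above the floor at E40. With 3 arrays many genes lie close by, and signals at the floor share one value, so the match describes shape only. For IVL the nearest were TTN at a distance of 0.34, TNNI1 at 0.83 and NEB at 0.84, all of muscle. For SPRP they were TNNT3 at 0.36, TNNI1 at 0.38 and MYOT at 0.47, also of muscle. SPINK5 lay nearest to COX8H at 0.15, MYH7 at 0.20 and XIRP2 at 0.21, of which MYH7 encodes a myosin heavy chain and XIRP2 an actin-binding muscle protein. The nearest patterns to IVL, SPRP and SPINK5 thus came largely from muscle genes.

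For CST6 the nearest were PGAM2 at 0.76, SLN at 0.80 and SERPINB11 at 0.84. PGAM2 and SLN are muscle genes, and SERPINB11, of the serpin B family, had 1330 at E40, 78.5 at E50 and 41.6 at E60. ELF3 lay nearest to DAPL1 at 0.13, FNDC1 at 0.30 and TF, transferrin, at 0.36. DAPL1 had 2223 at E40, 270.3 at E50 and 165.8 at E60, a stepwise drop like that of ELF3. For CALML5 they were SULT1E1, an oestrogen sulphotransferase, at 0.02, and the muscle genes MRLN and ATP2A1 at 0.04 each. All of these had signals near 100 at E40 and under the floor later, as CALML5 had.

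The members with smaller differences had nearest genes of mixed kinds. KRT10 lay nearest to DUSP23, C1QTNF5 and JMJD7, each at 0.02. FABP5 lay nearest to CFAP73 and USP36 at 0.07 each and IVNS1ABP at 0.08. DSP lay at 0.01 from MMP1 and LOC396787 and at 0.02 from CSN2. All 3 of these had E40 signals near 33, under the floor on both later arrays, so that their likeness to the bright DSP probe set was set by the floors.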

How the data were processed

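RNA pooled from the molar germs of 1 litter per stage was hybridised to 1 array per stage. The authors scanned the arrays (GeneChip scanner 3000, Command Console 3.1), computed MAS 5.0 signals in GeneSpring 11.0 and deposited their log2 values. These were used as deposited, with no further scaling. MAS 5.0 signals are noisy at low intensity, and scaling sets the zero point of every fold. Depth has no meaning here, and precision is limited by the number of arrays. The table had 24123 probe sets, less 124 array controls, and of the remaining 23999, 10069 had 1 gene symbol in the platform table, 198 several and 13732 none. For 8 of the 9 members the gene ID agreed between the platform and RefSeq tables, and for CST6 it differed.

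Genes were read by their brightest probe set (highest mean log2 signal). Every member probe set was named, with up to 4 of the brightest genes of each other list and the 3 genes nearest in pattern to each member. Members and lists were chosen with earlier results of these data known. The computation (Python 3.11.15, numpy 2.4.6, pandas 2.3.3, matplotlib 3.10.9) was tested on simulated data. Other floors, scalings, thresholds and probe set choices were tried.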

Additional observations from a re-analysis of the deposited data

How the results depend on the processing

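No called member value changed direction under any alternative run. The count of member probe sets lower on E50 versus E40 was 11 of the 13 with a fold, and 12 with no floor. It fell with the floor at the 50th percentile of each array, where CALML5 and the dimmer probe sets of DSP and ELF3 had no fold. Scaling moved the count too. At equal medians the calls of both FABP5 probe sets were lost. After quantile normalization the calls of the dimmer FABP5 and ELF3 probe sets were lost, and the brighter DSP probe set was called lower. With 1 probe set per gene the count was 7 of 9, the count by gene given above. The median log2 fold on E50 versus E40 was -3.01, but -4.03 with no floor and -1.79 with the floor at the 50th percentile of each array. On E60 versus E50, the 1 probe set called lower became 0 with that higher floor, and 2 were called higher with no floor instead of 0. On E60 versus E40, 1 probe set (KRT10) was called higher at equal medians instead of 0. The median there was -3.58, but -1.74 with the higher floor and -2.58 with each gene's probe sets averaged. It was -2.91 without probe sets that end in _s_at, _x_at or _a_at, which among the members removed IVL alone. The settings move the floor, the number of probe sets or the scale, and the folds of CALML5 and SPINK5 are bounds because their later signals were under the floor. Scaling to equal medians shifted all log2 folds on E50 versus E40 by 0.39 and those on E60 versus E50 by -0.08. It raised the share of higher among all called probe sets on E50 versus E40 to 44.6%, against 14.3% as deposited, and quantile normalization raised it to 42.5%. The count of all probe sets lower on E50 versus E40 was 2862 as deposited and 1636 after quantile normalization. No paired analysis was possible because each stage has 1 array and no stage has a replicate number to share.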
